A study of Mus musculus with 2 samples.

Results

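C1q macrophages with high Mrc1 are described here from the healing calvarial defect of mice given gambogic amide (GA) or vehicle. They were chosen by their own transcripts. A cell was included if it held at least 20 unique molecular identifiers (UMIs, counted RNA molecules) of C1qa, C1qb and C1qc together, at least 15 of Mrc1 and at least 2 of Csf1r. Among other limits, it had to hold under 3% of its UMIs in S100a8 and S100a9, and under 1% in Col1a1, Col1a2 and Col3a1. Of 17129 cells within the limits on quality, 752 were included, 347 of 9036 in the GA library and 405 of 8093 in the control library. They are called members below.

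Single-cell RNA-seq was performed on 2 libraries from male C57BL/6 mice (C57BL/6J in the methods of the study) of 2 months, each pooled from 5 mice. The frontal bone had received a circular defect of 1.8 mm, and tissue was collected at 7 days. The GA group was injected into the peritoneum daily with 100 µL of the small molecule gambogic amide in 10% DMSO. The control group was injected with 10% DMSO alone. Injections began 24 h before injury and went on for 1 week, with GA at 1.2 mg/kg by the labels of the libraries, while the methods of the study give 2 mg/kg and 4 weeks. The agent was given systemically, so cells other than macrophages were exposed to it as well. Each condition has 1 library and the 5 mice in it cannot be separated, so no test between conditions was possible. An effect of GA and a difference between pools or libraries cannot be told apart. Every interval below is a 95% interval that covers counting error only.

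C1q is the recognition part of the classical complement pathway, and in most tissues macrophages are its main source. Mrc1 encodes the mannose receptor CD206, an endocytic lectin that clears glycoproteins and collagen fragments. Macrophages rich in it include long-lived tissue macrophages that express Folr2, Cbr2, Cd163 or Timd4, as well as cells that mature from monocytes during wound healing. In bone marrow, macrophages with Vcam1 and Spic support red cell formation and recycle iron.

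The members carried the transcripts of macrophages outside the rule. After each cell was thinned to 5000 UMIs, Adgre1, which encodes the macrophage surface protein F4/80, was seen in 93.9% of GA and 93.6% of control members. In mesenchymal cells, which should lack it, the shares at the same depth were 0.515% and 1.09%. The median member held 21282 UMIs in GA and 22749 in control, with quartiles of 16784.5 to 27408.5 and 18657 to 29124. No barcode was shared between a GA and a control member, and the libraries shared 23 barcodes in all.

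Markers of other cells differed in level, and some of them differed between the libraries. The 13 monocyte markers summed to 4582 CPM (UMIs scaled to 1e+06 per group of cells) in GA and 3962 CPM in control members, with none at 0. Of this, 2117 and 1328 CPM came from Ifi27l2a, which is also an interferon response gene. The median log2 ratio of GA over control was 0.36 for these markers and ranged from 0.029 to 0.90 over the alternatives tried. T and NK cell markers summed to 53.6 CPM in GA and 74.9 CPM in control members, with Il7r the most abundant and Cd8a and Cd8b1 at 0. Endothelial markers summed to 50.6 and 39.3 CPM, with Eng the most abundant and Tie1 at 0, and B lineage markers to 88.6 and 73.3 CPM, led by Ighm. Dendritic markers summed to 594 and 523 CPM, of which Bst2, which is also an interferon response gene, gave 410 and 337 CPM. The 18 neutrophil markers summed to 1116 CPM in GA against 469 CPM in control members, with S100a9 the most abundant at 431 and 133 CPM and no marker at 0. The same sum was 628 and 175 CPM in mesenchymal cells, and 97919 and 27836 CPM over all kept cells. S100a9 was detected at 5000 UMIs in 79.5% of GA and 40.8% of control members, and in 67.5% and 28.8% of mesenchymal cells. The rule limited S100a8 and S100a9 in members, and nothing is drawn from their values there. The other 16 neutrophil markers summed to 355 and 222 CPM in members, 190 and 61.0 CPM in mesenchymal cells and 22976 and 7346 CPM over all kept cells. The 19 mesenchymal markers summed to 482 and 743 CPM in members and to 33659 and 53132 CPM over all kept cells, with Col1a1 the most abundant and none at 0. Without the 3 collagen genes that the rule limited, the sums in members were 169 and 285 CPM. The part of these transcripts in the differences below was not tested.

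The share of members depended on which cells they were counted against. Members made up 3.84% of kept GA cells (3.45–4.26) and 5.00% of kept control cells (4.54–5.50), a ratio of 0.767 (0.667–0.883). With the thresholds set on counts scaled to 15000 UMIs per cell the ratio was 0.926 (0.791–1.08), and in cells of at least 10000 UMIs it was 0.896 (0.779–1.03), intervals that include 1. Cells with at least 3% of their UMIs in S100a8 and S100a9, the transcripts that mark neutrophils, were 52.9% of GA cells and 25.1% of control cells. Against the remaining cells the order turned, with members at 8.16% in GA and 6.69% in control, a ratio of 1.22 (1.06–1.40). Among cells with at least 2 UMIs of Csf1r within the same limits on S100a8, S100a9 and collagens, the shares were 22.0% and 19.4%, a ratio of 1.14 (1.00–1.29).

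Within the macrophages, cells with high Mrc1 took a larger share in GA. Of all C1q macrophages within the other limits of the rule, 57.4% of 605 GA cells and 42.6% of 951 control cells reached 15 UMIs of Mrc1, a ratio of 1.35 (1.22–1.49). The remainder, called low-Mrc1 macrophages, were 258 GA and 546 control cells. They were 2.86% of kept GA cells and 6.75% of kept control cells.

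The level of Mrc1 (chr2:14229392-14332057, plus strand, GRCm38) was continuous across the threshold. Without a division at 15 UMIs, C1q macrophages held 1089 CPM of Mrc1 in GA and 709 CPM in control, a log2 ratio of 0.62 (0.59–0.65). The control library had the larger share of cells with almost no Mrc1. Just inside the threshold, at 15 to 17 UMIs, lay 36 GA and 61 control cells, and just outside it, at 12 to 14 UMIs, 43 and 69 cells. The median member held 34 UMIs of Mrc1 in GA (quartiles 23 and 50.5, range 15 to 150) and 29 in control (quartiles 20 and 41, range 15 to 203). Members held a median of 189 UMIs of the C1q genes in GA and 200 in control. These are the values the members were selected on, and nothing is drawn from them.

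**Figure D1:**
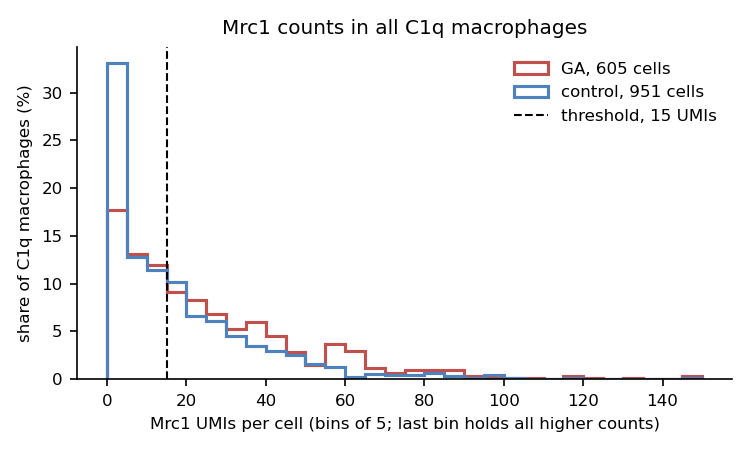
Share of all C1q macrophages (y axis, percent) by Mrc1 UMIs per cell (x axis, bins of 5, the last bin holding all higher counts), with GA (605 cells) in red and control (951 cells) in blue. The dashed line is the threshold of 15 UMIs, to the right of which lie 57.4% of GA and 42.6% of control cells.

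High-Mrc1 members differed from low-Mrc1 macrophages in genes that the rule did not name, although cells grouped by 1 transcript differ in what goes with it and the comparison is a description. Of 9113 genes with at least 200 UMIs in both groups together, 104 (1.14%) were more than 2-fold higher in members in both libraries and 67 (0.735%) were more than 2-fold lower. Of 23 tissue-resident macrophage genes with that depth, 15 were higher and 0 lower. Over the 26 genes of this list with at least 20 UMIs, the median log2 ratio was 1.65 in GA and 1.58 in control. For all 13342 genes compared it was 0.04 and 0.06.

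Of 18 scavenger and lectin receptors with at least 200 UMIs, 4 were higher and 0 lower, namely Cd163, Clec10a, Cd209f and Cd209g. The median over the 21 with at least 20 UMIs was 0.36 in GA and 0.44 in control. Cd163, the receptor for haemoglobin bound to haptoglobin, stood at 73.0 CPM in GA members and 12.1 CPM in GA low-Mrc1 macrophages, and at 40.4 and 2.61 CPM in control. Its log2 ratio was 2.59 (2.23–2.97) in GA and 3.95 (3.44–4.50) in control. Of the resident macrophage list, Folr2, a folate receptor, had log2 ratios of 1.21 and 1.98, and Cbr2, a carbonyl reductase, 1.47 and 2.40. Fcna, a ficolin that starts the lectin pathway of complement, had log2 ratios of 2.54 and 3.23. Timd4, a phosphatidylserine receptor for dying cells, rested on 100 and 133 UMIs in members and had log2 ratios of 3.13 and 3.20. The lectin genes Cd209f and Cd209g came to 52.3 and 25.7 CPM in GA members and 61.5 and 18.9 CPM in control members. Cd209g counted 2 UMIs in the low-Mrc1 macrophages of each library, and its log2 ratios of 6.21 (4.34–9.27) and 6.94 (5.06–9.99) have wide intervals. All of these genes were higher in members of both libraries.

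Of 19 chemokine genes with at least 200 UMIs, 3 were higher in both libraries (Ccl7, Ccl8 and Ccl24) and 4 lower (Ccl5, Cxcl9, Cxcl10 and Cxcl14). Ccl8 (chr11:82115185-82116799, plus strand), a chemokine that attracts monocytes and eosinophils, was by far the most abundant of the 10 highest genes. It stood at 1245 CPM in GA members and 72.8 CPM in GA low-Mrc1 macrophages, and at 682 and 74.4 CPM in control. The log2 ratios were 4.10 (3.95–4.24) and 3.20 (3.10–3.30). Ccl7, a related monocyte chemokine, had log2 ratios of 1.48 and 2.29. Gas6, the bridging ligand of the receptors Mertk and Axl, had ratios of 1.63 and 1.21. Among growth factors with enough UMIs, 3 of 24 were higher and 3 lower in both libraries. The higher were Pdgfc (1.81 and 1.87), Hbegf (1.85 and 1.65) and Bmp2 (2.48 and 1.88), and the lower were Fgf13, Csf1 and Inhba. Vcam1 (chr3:116109949-116129688, minus strand), an adhesion molecule, stood at 270 and 231 CPM in members, with log2 ratios of 2.96 and 3.55. Itgad, an integrin subunit that can bind it, had ratios of 5.73 (4.16–8.02) and 5.44 (4.37–6.77) from 3 and 7 UMIs in the low-Mrc1 macrophages. Also among the 10 highest were Paqr9 (4.47 and 3.97), Tslp, an epithelial-type cytokine (3.50 and 4.30), the thyroid hormone receptor Thrb (3.33 and 4.35) and the zinc transporter Slc39a12 (3.02 and 2.98). Hbb-bt, a globin, belonged to this group by its ratios of 5.52 and 3.61, but 903 of its 915 UMIs in GA and 777 of 822 in control lay in 5 members.

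Several named genes were lower in members of both libraries. Mmp12, the macrophage elastase, stood at 46.3 CPM in GA members against 267 CPM in low-Mrc1 macrophages, and at 36.5 against 348 CPM in control. Its log2 ratios were −2.53 (−2.70 to −2.37) and −3.25 (−3.41 to −3.10). Of the Mmp12 UMIs in members, 306 of 382 in GA and 269 of 362 in control lay in 5 cells. Cxcl9, a chemokine induced by interferon gamma, had ratios of −3.99 (−4.35 to −3.64) and −7.07 (−9.35 to −5.51), the latter from 3 UMIs in control members. Cst7, an inhibitor of cysteine proteases, had ratios of −3.24 and −3.21, and Cd200, a ligand that restrains myeloid cells, −3.05 and −3.02. Cst7 rested on 19 and 23 UMIs in members and Cd200 on 11 and 15. Serpine2 (−4.42 and −3.24), Magi1 (−3.59 and −2.92) and Nav3 (−5.87 and −2.69) also rested on few UMIs in members, as did Csmd3 (−5.78 and −3.41) and Kcnma1 (−5.75 and −3.08), and Iglv1 had none. In low-Mrc1 macrophages Iglv1 stood at 40.3 CPM in GA and 0.077 CPM in control, and the GA cell richest in B lineage markers held 426056 CPM of them, against a 90th percentile of 178 CPM. Cd9, a tetraspanin found on lipid-associated macrophages, had ratios of −2.04 and −1.52, and Itgax, which encodes CD11c, −1.39 and −2.44. Of 22 lipid handling genes with at least 200 UMIs, 2 were lower in both libraries (Cd9 and Apoc1) and 1 higher (Ch25h). Of 11 complement genes, 1 was lower (Itgax) and 2 higher (C4b and Vsig4). Of 20 matrix degradation genes, 2 were lower (Mmp12 and Adamts1) and 0 higher. None of 10 genes of MHC class II presentation passed 2-fold in both libraries. The invariant chain gene Cd74 had ratios of −1.18 and −0.97 and H2-Aa, a class II alpha chain, −1.13 and −0.85. The median cell differed little in the whole class II list, at 718 CPM in members and 747 CPM in low-Mrc1 macrophages of GA, and 640 and 748 CPM in control. The 90th percentiles were 9725 and 31341 CPM in GA and 7798 and 21676 CPM in control, so the difference lay in the cells richest in these transcripts.

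**Figure D2:**
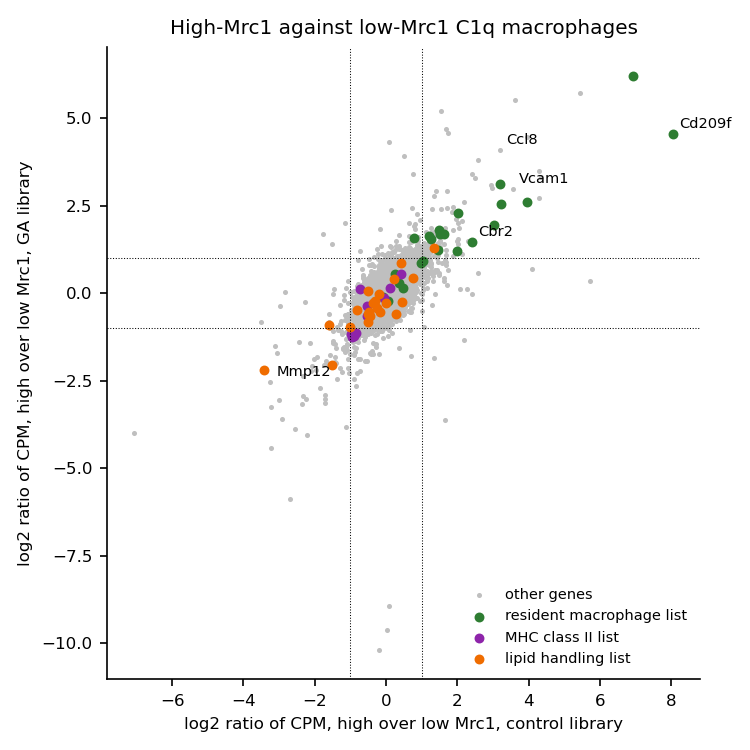
Log2 ratio of CPM in high-Mrc1 members over low-Mrc1 macrophages in the control library (x axis) and the GA library (y axis), 1 point per gene with at least 200 UMIs in both groups together. Genes of the rule are left out. Genes with under 20 UMIs in members are drawn only if they are in a list, so some of the lowest genes are missing. Dotted lines mark 2-fold. Of the 23 resident macrophage genes (green), 15 lie past 2-fold to the upper right and 0 to the lower left, and the 3 points at the bottom are the immunoglobulin genes Igha, Igkc and Jchain.

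Members were not uniform, and some genes were held almost wholly by a few of them. The groups below were drawn after the values were seen and are descriptions. A group of 31 GA members (8.93%, 6.15–12.4) and 31 control members (7.65%, 5.26–10.7) held at least 10 UMIs of Vcam1. These cells contained 99.1% of all Itgad UMIs of GA members and 99.1% of those of control members. They also held 96.0% and 88.0% of Timd4, 98.1% and 97.2% of Paqr9, and 91.6% and 93.3% of Kcnj10, a potassium channel gene. The haem-regulated transcription factor gene Spic had 74.8% and 46.6% of its UMIs there, and the iron exporter ferroportin, Slc40a1, 62.9% and 59.7%. Cd5l, a secreted scavenger protein, had 74.3% and 79.7%. By contrast, Folr2 stood at 114 and 139 CPM in the Vcam1 group against 441 and 334 CPM in the other members. Spp1, which encodes osteopontin, stood at 149 and 178 CPM against 3439 and 4321 CPM. The Vcam1 group therefore carried marrow macrophage genes with little Folr2 and Spp1, in both libraries.

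A second group held at least 20 UMIs of Ccl8, 102 GA members (29.4%, 24.7–34.5) and 76 control members (18.8%, 15.1–22.9). The intervals cover the counting of cells and not the spread between mice. Selenop, which encodes a secreted selenium carrier, stood at 5839 and 4478 CPM in these cells against 2672 and 2619 CPM in the others. Folr2 stood at 627 and 569 CPM against 342 and 269 CPM, while Fn1 stood at 110 and 192 CPM against 591 and 791 CPM. The last of these groups held at least 50 UMIs of the class II genes H2-Aa, H2-Ab1, H2-Eb1 and Cd74 together, 62 GA members (17.9%, 13.98–22.3) and 52 control members (12.8%, 9.74–16.5). Ccr2, the chemokine receptor that brings monocytes out of the marrow, stood at 463 and 381 CPM in them against 127 and 70.9 CPM in the others. Their Spp1 was 493 and 993 CPM against 3755 and 4485 CPM. The median Mrc1 count was 27 and 24 UMIs in the class II group and 35 and 29 UMIs in the others. The groups shared some cells. The Vcam1 and class II groups had 5 GA and 6 control members in common, the Vcam1 and Ccl8 groups 4 and 2, and the class II and Ccl8 groups 11 and 5.

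A smaller group of 19 GA and 24 control members held at least 3 UMIs of Cd209f. They contained 98.1% and 98.9% of the Cd209g UMIs and stood at 659 and 520 CPM of Cd163, against 44.1 and 18.6 CPM in the other members. Of these cells, 9 in GA and 13 in control were also in the Ccl8 group, 7 and 10 in the Vcam1 group, and 5 and 2 in the class II group. Lyve1, a hyaluronan receptor of perivascular macrophages, had 64.8% of its UMIs in them in control and 22.0% in GA. These shares rest on few UMIs, 35 in the group and 19 in the other members in control, and 13 and 46 in GA.

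**Figure D3:**
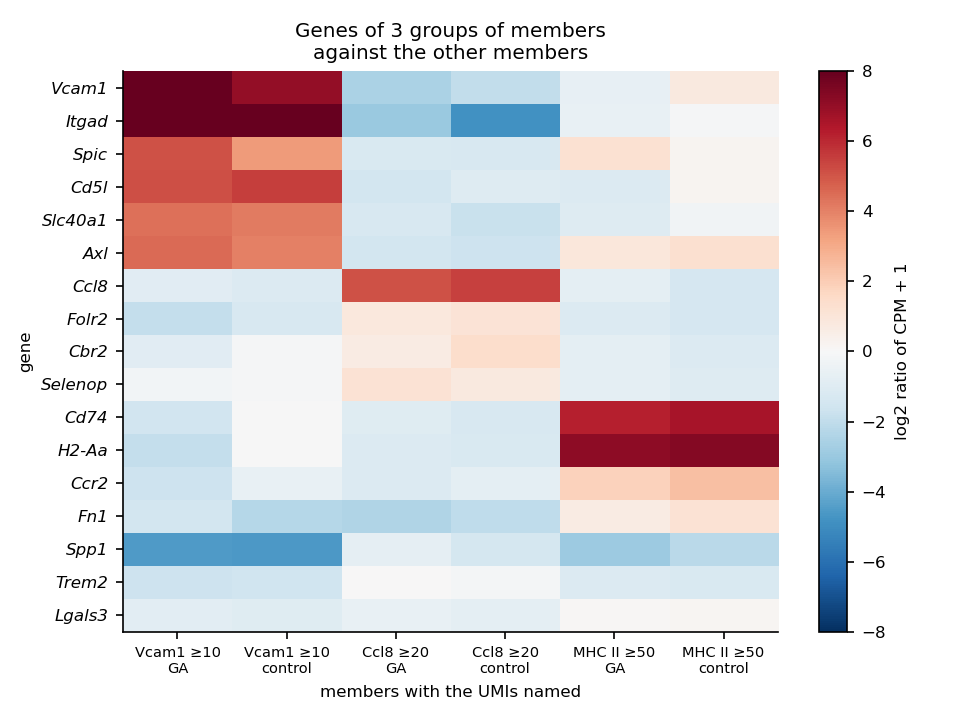
Log2 ratio of CPM + 1 for 17 genes (rows) in members with at least 10 UMIs of Vcam1, 20 of Ccl8 or 50 of class II genes, against all other members of the same library (columns, GA and control). Red is higher in the group, and Itgad, Spic, Cd5l, Slc40a1 and Axl are red in the Vcam1 columns, where Spp1 is blue.

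Members thinned to 5000 UMIs were also ordered by their level of Mrc1. They had been selected on Mrc1 at full depth, where a shallow cell needed a higher share of it to be included, so these values are a description of the selected cells. Over 5220 genes and 347 GA and 404 control cells, which share library and depth, the highest Spearman rho was that of Slc9a9, an endosomal sodium-proton exchanger (0.44 and 0.38). Selenop (0.40 and 0.33), Ccl8 (0.38 and 0.29), the transcription factor gene Maf (0.41 and 0.26) and the endocytic adaptor gene Dab2 (0.41 and 0.25) came next. The lowest were Lgals3, which encodes galectin-3 (−0.42 and −0.32), the glycolytic gene Gapdh (−0.30 and −0.31) and Cd9 (−0.29 and −0.31). With the summed class II genes, H2-DMa (0.38 and 0.40) and Ccr2 (0.35 and 0.29) were high, and the cathepsin gene Ctsd (−0.44 and −0.36), Spp1 (−0.40 and −0.37) and Trem2, a lipid receptor (−0.26 and −0.30), were low. These are correlations across cells of 1 library each and carry no p-value.

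Between GA and control members most genes differed little. Of 7517 genes with at least 200 UMIs, 67 (0.891%) were more than 2-fold higher in GA and 26 (0.346%) more than 2-fold lower. The median log2 ratio was 0.04, with the 10th and 90th percentiles at −0.27 and 0.35. Without the 5 members of each library with most UMIs of the gene, 63 of the 67 and 17 of the 26 stayed past 2-fold. In the low-Mrc1 macrophages the counts were 103 higher and 50 lower of 7471. Both comparisons use the same 2 libraries and are not independent of each other.

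The 10 highest ratios were those of the genes given here and of Ifit1 and Isg15, which are described below. Saa3, an acute phase serum amyloid gene, had a log2 ratio of 2.87 (2.35–3.43), but 160 of its 213 UMIs in GA lay in 5 cells. Over the alternatives the lowest ratio of Saa3 was 1.13. Chil3, a chitinase-like lectin of alternatively activated macrophages and monocytes, stood at 40.7 CPM in GA and 8.67 CPM in control, a ratio of 2.23 (1.88–2.59). With thresholds on counts scaled to 15000 UMIs its ratio was 0.65. Ccl24, an eosinophil chemokine, stood at 85.7 and 19.2 CPM, a ratio of 2.16 (1.93–2.40), with 351 of 708 UMIs in 5 GA cells. Over the alternatives the lowest ratio of Ccl24 was 1.32. The gene was found in 99 of 347 GA and 88 of 405 control members, so the number of cells with it differed less than its level. The neutrophil gene Lcn2 (1.93) and Slfn4, a schlafen gene of myeloid cells (1.87), completed this set with the histone genes Hist1h1b (2.35), Hist1h2ae (1.82) and Hist1h2ap (1.81). Of the GA UMIs of these histone genes, 167 of 297, 121 of 227 and 488 of 912 lay in 5 cells. Without dividing cells the ratio of Hist1h2ae was −0.50 and that of Hist1h2ap −0.49.

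At the other end, several of the lowest ratios came from few cells. Mpo, the myeloperoxidase of granulocyte precursors, had a log2 ratio of −2.43, but 355 of its 362 UMIs in control lay in 5 cells, and its ratio was 2.59 without the 5 richest cells of each library. Lyz1, a lysozyme gene, had a ratio of −1.87, with 822 of 1252 control UMIs in 5 cells. Mgp and Postn, matrix genes of mesenchymal cells, had ratios of −2.05 and −1.34. Ppbp, a platelet chemokine, had a ratio of −1.81, and Ctla2a, a protease inhibitor gene, and Slc7a2, an arginine transporter gene, had −1.32 and −1.26. Of the control UMIs, 180 of 228 for Ppbp and 97 of 158 for Slc7a2 lay in 5 cells, and without the 5 richest cells of each library the ratios were −0.46 and −0.63. Cxcl3, a neutrophil chemokine, stood at 46.0 CPM in GA and 129 CPM in control, a ratio of −1.49 (−1.65 to −1.32). With at least 10 UMIs of Mrc1 the ratio was −0.88, below 2-fold. Cxcl3 was found in 48 GA and 105 control members.

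**Figure D4:**
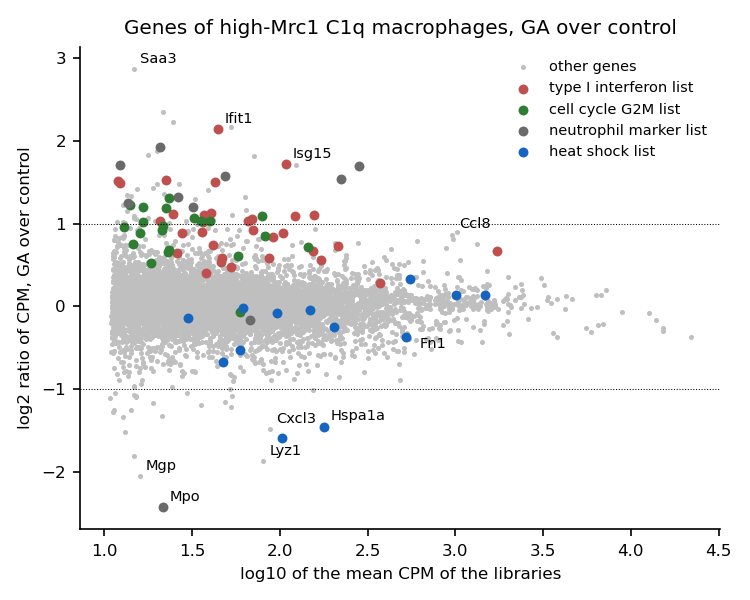
Log2 ratio of CPM, GA over control members (y axis), against log10 of the mean CPM of the libraries (x axis), for genes with at least 200 UMIs. Dotted lines mark 2-fold. Of the type I interferon list (red), 15 of 32 genes lie above the upper line and 0 below the lower one, while Hspa1a and Hspa1b (blue) lie below it.

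Genes of the type I interferon response formed by number the largest group past 2-fold among the lists examined. The proteins they encode block virus replication and sense foreign RNA, and a myeloid cell switches them on when interferon reaches its receptor. Of 33 genes of the list with at least 20 UMIs, 33 were higher in GA members. Of the 32 with at least 200 UMIs, 15 were more than 2-fold higher and 0 more than 2-fold lower. The median log2 ratio was 0.92, against 0.06 for the 12010 genes with at least 20 UMIs.

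Isg15, a ubiquitin-like modifier, stood at 166 CPM in GA members and 50.5 CPM in control members. Its log2 ratio was 1.72 (1.57–1.87). Ifit1, which binds foreign RNA caps, stood at 72.5 and 16.4 CPM, a ratio of 2.14 (1.89–2.40). Irf7, the transcription factor that amplifies interferon production, stood at 213 and 99.4 CPM, a ratio of 1.10 (0.98–1.21). Other genes past 2-fold were Cmpk2 (1.52), Ifit3 (1.51), Ifit3b (1.51), Isg20 (1.49), Phf11d (1.12), Ifi47 (1.12), Ifit2 (1.10), Rsad2 (1.09), Zbp1 (1.06), Oasl1 (1.03), Usp18 (1.03) and Xaf1 (1.02). Ifit3 and Ifit3b are near-identical copies whose reads could be divided between them, so each value is uncertain. With alternative processing Oasl1 came to 0.60 with scaled thresholds, Ifit2 to 0.69 after thinning and Ifit3b to 0.91 as the mean of cells. Each was below 2-fold, as were the lowest values over the alternatives of Rsad2 (0.78), Usp18 (0.85), Xaf1 (0.91), Zbp1 (0.996) and Phf11d (0.999). The other list genes past 2-fold stayed past it. Ifi27l2a was the most abundant gene of the list, at 2117 and 1328 CPM, a ratio of 0.67 (0.64–0.71).

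More cells held these transcripts at equal depth. At 5000 UMIs, Isg15 was detected in 36.3% (31.2–41.6) of GA and 20.05% (16.3–24.3) of control members, and at full depth in 64.0% and 42.7%. Irf7 was detected in 53.9% (48.5–59.2) and 29.5% (25.1–34.2), and at full depth in 80.1% and 64.2%. In mesenchymal cells at full depth, Isg15 was detected in 68.8% and 54.4%. These cells were deeper, with medians of 47521 and 48539 UMIs against 21282 and 22749 in members, so their shares cannot be set against those of members. The median member held 4137 CPM of the whole list in GA and 2512 CPM in control. The lower quartiles were 2405 and 1387 CPM and the upper quartiles 6952 and 4344 CPM, so the distributions overlapped. The tenth of members richest in these transcripts held 32.3% of them in GA and 31.9% in control, so they were spread over the members in a like manner in both libraries.

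The same list was higher in GA in other cells of these libraries. Its median log2 ratio was 0.94 in low-Mrc1 macrophages, 1.13 in mesenchymal cells and 0.62 in endothelial cells. The endothelial value rests on only 22 GA and 61 control cells. Its summed level in mesenchymal cells was 2541 CPM in GA and 1271 CPM in control, below that of members, at 5184 and 3076 CPM. The higher level in GA was thus seen in each of these groups of cells.

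**Figure D5:**
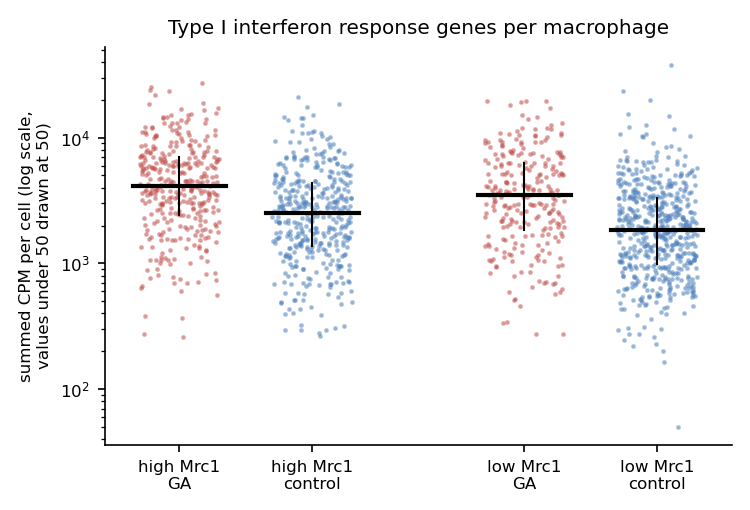
Summed CPM of the type I interferon list per cell (y axis, log scale, values under 50 drawn at 50) in high-Mrc1 members and low-Mrc1 macrophages of the GA (red) and control (blue) libraries, 1 point per cell. Thick bars are medians, 4137 CPM in GA and 2512 CPM in control members, and thin bars span the quartiles.

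Start regions of some of these genes show the letters that interferon-activated factors recognise. The stretches of 80 bases below are given from RefSeq (GRCm38.p6) on the strand of the gene. They were picked because their genes had the highest ratios of the list with a match, so that they hold the letters follows from the choice. Cmpk2 (1.52), whose ratio lay between those of Isg15 and Ifit3, is not shown. Capitals mark GAAANNGAA or its reverse complement TTCNNTTTC, the core of the interferon-stimulated response element.
Ifit1, chr19:34640769-34640848, plus strand: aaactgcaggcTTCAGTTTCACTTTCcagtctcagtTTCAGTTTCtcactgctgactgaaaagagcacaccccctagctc
Isg15, chr4:156200841-156200920, minus strand: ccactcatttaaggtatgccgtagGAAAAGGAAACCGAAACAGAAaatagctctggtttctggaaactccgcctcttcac
Ifit3, chr19:34583391-34583470, plus strand: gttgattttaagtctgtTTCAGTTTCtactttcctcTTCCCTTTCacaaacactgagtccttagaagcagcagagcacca
The stretches of Ifit1 and Isg15 hold 3 matches, counted with overlaps, and that of Ifit3 holds 2. The stretch of Ifit3b has the same letters as that of Ifit3. Of 26 list genes matched to the RefSeq promoters, 12 (46.2%) held the letters on either strand within 250 bases before the start. Of all 27025 genes 8.18% did, and of 6069 genes with 200 UMIs in members 8.01%. A match is a description of the sequence and not of binding.

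MHC class I genes, which present peptides from inside the cell, were higher in GA members by smaller amounts. All 14 genes of the list had ratios above 0, with a median of 0.37, and 0 passed 2-fold. B2m, the light chain of class I, stood at 3445 and 2716 CPM, a log2 ratio of 0.34 (0.32–0.37). Psmb9, a subunit of the immunoproteasome, had a ratio of 0.73 (0.57–0.89). The MHC class II list had a median of 0.19, with 10 of 12 genes above 0 and 0 of 9 past 2-fold.

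Genes of cell division were higher in GA members, and a small number of cells held them. The G2/M list had a median log2 ratio of 0.94, with 25 of 26 genes above 0 and 9 of 21 past 2-fold. With scaled thresholds this median was 0.56. The S phase list had a median of 0.58. Top2a, the topoisomerase of dividing cells, stood at 108 and 50.7 CPM, a ratio of 1.09 (0.93–1.25), and Ccnb1, a mitotic cyclin, had a ratio of 1.21. The other G2/M genes past 2-fold were Kif23 (1.31), Aurkb (1.23), Nusap1 (1.19), Cenpf (1.07), Cdk1 (1.03), Birc5 (1.03) and Kif11 (1.02). Rrm2 (1.07) was the only one of S phase. With scaled thresholds Cenpf was 0.10 and Kif11 0.51. The tenth of members richest in G2/M transcripts held 87.1% of them in GA and 79.4% in control. The median member held 146 and 137 CPM, nearly the same. Dividing cells, taken as those with at least 3 UMIs of Mki67 and Top2a, were 49 GA members (14.1%) and 45 control members (11.1%), a ratio of 1.27 (0.870–1.86) whose interval includes 1. Without them the G2/M median was −0.15, over a list that includes both genes. In the low-Mrc1 macrophages the G2/M median was 0.88, with 25 of 26 genes above 0, and the S phase median was 0.83. The shares of dividing cells there were 8.91% and 8.42%.

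Several genes that set members apart from low-Mrc1 macrophages were also higher in GA members, while others were lower. Of 26 resident macrophage genes, 20 were higher, with a median of 0.30 that was 0.16 with scaled thresholds, and 1 of 23 (Ccl24) passed 2-fold. In low-Mrc1 macrophages 15 of 21 were higher, with a median of 0.25. Cd163 stood at 73.0 CPM in GA and 40.4 CPM in control, a log2 ratio of 0.85 (0.67–1.04). Folr2 stood at 417 and 319 CPM (0.39, 0.32–0.46) and Cbr2 at 404 and 298 CPM (0.44, 0.37–0.51). Maf, a transcription factor gene of tissue macrophages, stood at 638 and 441 CPM (0.53, 0.48–0.59). The genes highest over low-Mrc1 macrophages were divided. Ccl8 (0.87), Tslp (0.59), Cd209g (0.44), Hbb-bt (0.42), Paqr9 (0.41) and Itgad (0.24) were higher in GA members. Thrb (−0.52, −0.96 to −0.09), Cd209f (−0.23, −0.42 to −0.05), Slc39a12 (−0.20) and Timd4 (−0.15) were lower. The intervals of Itgad, Slc39a12 and Timd4 included no difference. GA members also held more Mrc1, a median of 34 against 29 UMIs, and its part in these ratios was not tested. At 5000 UMIs, Folr2 was detected in 68.6% and 59.4% of members and in 0.344% and 0.182% of mesenchymal cells, which should lack it. Cbr2 was detected in 65.1% and 52.0% of members. At full depth the shares of members were 88.5% and 80.7% for Folr2 and 82.7% and 74.6% for Cbr2.

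The chemokine list was divided. Of 22 genes, 15 were higher in GA, and of 16 with enough UMIs 1 was more than 2-fold higher and 2 more than 2-fold lower. Ccl8 stood at 1245 CPM in GA and 682 CPM in control members, a log2 ratio of 0.87 (0.82–0.91), and at 5000 UMIs it was detected in 49.9% (44.5–55.2) and 37.6% (32.9–42.5). At full depth these shares were 62.2% and 49.9%. Only 20 GA and 58 control endothelial cells reached 5000 UMIs, too few for a share to be read. Mesenchymal cells gave 36.3% and 32.4% and low-Mrc1 macrophages 11.5% and 9.51%. UMIs of free RNA were not told apart from those of the cells themselves. Ccl6 (1242 and 704 CPM, 0.82), Ccl9 (762 and 442 CPM, 0.79) and Ccl12 (208 and 110 CPM, 0.93), which attract monocytes and other leukocytes, were also higher in GA. Ccr2 stood at 184 and 113 CPM, a ratio of 0.70 (0.59–0.82). In low-Mrc1 macrophages the ratio of Ccl8 was −0.03 and that of Ccl12 0.10, while those of Ccl6 and Ccl9 were 1.00 and 0.99. The difference in Ccl8 between these groups was not tested.

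Growth factor genes tended to be lower in GA members. Of 29 genes, 5 were higher, the median log2 ratio was −0.31 and 0 of 21 passed 2-fold in either direction. Vegfa, which drives vessel growth, stood at 132 CPM in GA and 234 CPM in control, a ratio of −0.82 (−0.93 to −0.72), and at 5000 UMIs it was detected in 27.7% (23.02–32.7) and 42.3% (37.5–47.3) of members, against 43.8% and 61.0% at full depth. Thbs1, an activator of latent TGF-beta, stood at 340 and 630 CPM, a ratio of −0.89 (−0.95 to −0.82). Pdgfa, a mitogen of mesenchymal cells, had a ratio of −0.63, and Igf1, a growth factor for bone-forming cells, −0.37. Fn1 had a ratio of −0.58 (−0.63 to −0.52) in members and 0.44 in low-Mrc1 macrophages. Tgfb1 had a ratio of −0.10.

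Genes of lipid handling were lower by small amounts. Of 22 genes, 4 were higher in GA, the median was −0.26 and 1 of 21, Ch25h, a cholesterol hydroxylase (−1.09), passed 2-fold. Of its 204 control UMIs 141 lay in 5 cells, and without the 5 richest cells of each library its ratio was −0.031. Apoe, which carries cholesterol out of the cell, stood at 19255 and 24903 CPM, a log2 ratio of −0.37 (−0.38 to −0.36). Lipa, the lysosomal acid lipase, had a ratio of −0.52 and Gpnmb, a glycoprotein of lysosome-rich cells, −0.55. Plin2, a coat protein of lipid droplets, had −0.40, Fabp5 −0.43 and Trem2 −0.26. At 5000 UMIs Trem2 was detected in 86.5% and 91.3% of members.

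Only a few stress genes passed 2-fold. Of 13 heat shock genes with enough UMIs, 2 were more than 2-fold lower in GA. Hspa1a stood at 95.6 CPM in GA and 262 CPM in control, a log2 ratio of −1.45 (−1.57 to −1.34), and Hspa1b at 51.1 and 154 CPM, a ratio of −1.59 (−1.75 to −1.43). The pair are near-identical copies whose reads are hard to tell apart, so each value is uncertain. The median of the heat shock list was −0.19. Of 21 oxidative stress genes, 1 passed 2-fold, Slc7a11, the cystine transporter (103 and 207 CPM, −1.01, −1.12 to −0.89). The list median was −0.21, with Nfe2l2, its main transcription factor gene, at −0.43 and Gclm, for glutathione synthesis, at −0.42.

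Apart from the neutrophil list, the other lists held few genes past 2-fold. The 13 macrophage identity genes that the rule did not use had a median of −0.01 and 0 past 2-fold. In the microglia list, Tmem119 (−1.09) passed, and among alternative activation genes Chil3, Ccl24 and Slc7a2 did, with a median of 0.36 over 21 genes that the rule did not use. Other genes past 2-fold were Cfb of the alternative complement pathway (1.10), Ms4a4c of the monocyte list (1.17), Ctsk, the collagenase of osteoclasts (1.32), Pecam1 (1.02) and Runx2 (−1.04). Of the GA UMIs, 629 of 744 for Ctsk and 75 of 130 for Pecam1 lay in 5 cells. Without the 5 richest cells of each library Ctsk was −0.49 and Pecam1 0.25. At their weakest over the alternatives Cfb was 0.89, Tmem119 −0.91 and Runx2 −0.80, each short of 2-fold. The neutrophil genes Camp (1.32), Ngp (1.20), Ltf (1.71), Retnlg (1.57), Il1r2 (1.25) and Lcn2 were also past 2-fold, while Mpo was lower. Of the GA UMIs of Il1r2, 97 of 158 lay in 5 cells, and its ratio was 0.42 without the 5 richest cells of each library. The list had a median of 1.32 over 15 genes of the list outside the rule. S100a8 and S100a9 were used by the rule.

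Axon guidance genes were present in members, and hedgehog genes were sparse. The list of neurotrophins and axon guidance summed to 1151 CPM in GA and 1218 CPM in control members, led by the semaphorin and growth factor receptor gene Nrp2 at 329 and 417 CPM. It had a median log2 ratio of −0.12 over 13 genes, with 0 past 2-fold. Ramp1, part of the receptor for the neuropeptide CGRP, stood at 16.3 and 32.1 CPM, a log2 ratio of −0.97 (−1.27 to −0.68). The 14 hedgehog genes summed to 20.5 CPM in each library, 4 of them had at least 20 UMIs, and Shh, Ihh and Dhh were at 0.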

How the data were processed

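Cells of the calvarial defect were measured in 2 libraries, GA and control. The authors deposited 1 matrix of counts per library, that is, UMIs per gene and barcode, without normalization. The file headers name Cell Ranger 7.0.1, and the submitters' notes name the build mm10. The GA matrix sums to 182949385 UMIs in 9322 barcodes and the control matrix to 214993030 in 8718. Barcodes were kept with 500 to 140000 UMIs and 200 to 9500 genes if mitochondrial genes held no more than 15% of their UMIs.

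Members and comparison cells were taken by fixed UMI thresholds, without clustering. Endothelial cells had at least 2 UMIs each of Cdh5 and Pecam1 and none of Ptprc, and mesenchymal cells had at least 5% of their UMIs in collagens and none of Ptprc. Members held 8259898 UMIs in GA and 9917901 in control. UMIs were summed over cells and divided by their total (CPM), and log2 ratios have exact conditional binomial intervals. Shares have Clopper-Pearson intervals and their ratios log-normal ones. Genes needed 200 UMIs to be counted past 2-fold and 20 UMIs to enter a list median. Shares of cells with a UMI used cells thinned to 5000 UMIs, which left out 1 control member. The median log2 ratio of all genes, 0.04, was not subtracted.

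No test was run, since each condition has 1 library. The study's pseudobulk test needs replicates. Scrublet (scanpy 1.11.5) marked 0 GA and 32 control barcodes (0.367%), too few to be used. Doublets were therefore left in, and removing the 695 and 608 highest scored barcodes was an alternative that removed 26 and 15 members. TMM came from edgeR 4.0.16 and was used for scaling only. Gene positions are from GENCODE vM21, in which 32158 of 32285 gene identifiers were found. Promoters are from RefSeq.

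Members, gene lists and named genes were chosen with earlier results of these data known. Named are the genes of the rule, the 10 highest and 10 lowest ratios of each comparison with GA or with low-Mrc1 macrophages, genes that correlate most with Mrc1 or class II genes, and genes of the lists, always those past 2-fold. The groups by Vcam1, Ccl8, class II and Cd209f were set after the values were seen. Of the alternatives, 16 are given, and 1 more, leaving out the 5 members of each library richest in a gene or list, was added after seeing the data. The steps were tested on simulated counts. A further limit of the rule, 1 alternative setting, 1 group of macrophages and some genes are not reported here.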

Additional observations from a re-analysis of the deposited data

Results flagged for a closer look

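Lyz1 was past 2-fold in members with the opposite direction in the low-Mrc1 macrophages of the same libraries. It had a log2 ratio of GA over control of −1.87 in members (285 and 1252 UMIs) and 1.68 in low-Mrc1 macrophages (509 and 357 UMIs). Of the control UMIs in members, 822 lay in 5 cells. The difference between the groups was not tested.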

How the results depend on the processing

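Over 17 alternatives there were 1635 values. Of these, 1326 stayed inside the interval of the reported value or, for counts of genes, within 1.5 times, 288 moved further and 21 changed sign where the interval of the reported value excluded 0. For the median of a list, the interval used was that of 1 gene at the middle of the list, not an interval of the median. A further 25 medians, of 8 lists for which that interval included 0, also changed sign. The interferon median kept its direction throughout, between 0.86 and 1.02. Each condition has 1 library, so no replicate could be left out. No paired analysis was possible because each condition has 1 library.

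Shares moved with the thresholds, GA first and control second. Members were 4.64% and 6.35% with at least 10 UMIs of Mrc1, 2.68% and 3.03% with at least 25, 3.39% and 3.66% with thresholds on counts scaled to 15000 UMIs, 6.87% and 7.67% in cells of at least 10000 UMIs, and 3.30% and 4.45% without dividing cells. The ratio among kept cells was 0.885 with 25 UMIs, 0.926 with scaled thresholds and 0.896 in cells of at least 10000 UMIs. Among cells low in S100a8 and S100a9 it was 1.41 with 25 UMIs and 1.47 scaled, and among C1q macrophages 1.55 and 1.59.

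Genes past 2-fold were 39 higher and 16 lower with scaled thresholds, 44 and 17 without dividing cells, 15 and 7 after thinning, when fewer genes reach 200 UMIs, and 190 and 88 with a minimum of 50 UMIs. Against low-Mrc1 macrophages they were 51 and 29 after thinning and 189 and 162 with 50 UMIs. The resident macrophage median was 0.16 with scaled thresholds, 0.19 with S100a8 and S100a9 under 1%, 0.20 as the mean of cells, 0.19 after thinning, 0.23 with TMM, 0.23 with 100 UMIs and 0.22 without the 5 richest cells. The lipid median was −0.29 with 25 UMIs of Mrc1, −0.20 without dividing cells, −0.30 after thinning, −0.30 relative to all genes and −0.32 with TMM. The G2/M median was 0.56 scaled and −0.15 without dividing cells, where Birc5 was −0.78, Hist1h2ae −0.50, Hist1h2ap −0.49, Kif23 −0.23 and Rrm2 −0.54.

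The other sign changes of values whose interval excluded 0 were as follows. The scavenger list, which holds Mrc1, was −0.013 without the 5 richest cells, the lysosome list −0.014 relative to all genes and −0.034 with TMM, and the chemokine list −0.0026 with scaled thresholds. The osteoclast list was −0.034 with 25 UMIs of Mrc1 and the T and NK list 0.26 with 10. The erythroid list was −0.46 without the barcodes scored highest as doublets, −0.22 with 25 UMIs and −0.76 without the 5 richest cells. Ctsk was −0.034 with 25 UMIs and −0.49 without its 5 richest cells, and Mpo was 2.07, 2.79, 2.39 and 2.59 without highest scored barcodes, scaled, without dividing cells and without its 5 richest cells. Some ratios lost 2-fold while the fold itself, not its log2, moved by over 1.5 times. Smaller moves that lost 2-fold are not listed here. Without the richest cells the ratios so moved were Ch25h (−0.031), Pecam1 (0.25), Ppbp (−0.46), Slc7a2 (−0.63) and Il1r2 (0.42). With scaled thresholds they were Chil3 (0.65), Pecam1 (0.38), Cenpf (0.10) and Ctsk (0.10). Without dividing cells they were Aurkb (0.011), Cdk1 (0.31), Top2a (0.31), Pecam1 (0.14), Slc7a2 (−0.47) and Ctsk (0.071), beside those of changed sign. Thinned they were Aurkb (0.13) and Mpo (−0.20), as the mean of cells Ctsk (0.62), Ifit3b (0.91), Mpo (−0.67) and Slc7a2 (−0.63), and without highest scored barcodes Pecam1 (0.34). Il1r2 was 0.44 with S100a8 and S100a9 under 1%, and Cxcl3 −0.88 with at least 10 UMIs of Mrc1. Except where the alternative itself removed cells or genes, the cause was not tested. Depth limits the sparse genes, such as Cd209g. The background profile was the sum of all barcodes, scaled as if every S100a8 and S100a9 UMI of members were background. On that assumption it would make up 1.04% of member UMIs in GA and 1.26% in control. The rule limited both genes, so this is not a measured share of background.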

Other observations

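Iron and haem genes summed to 31004 CPM in GA and 37283 CPM in control members, and to 40440 and 44021 CPM in low-Mrc1 macrophages. The iron and haem list had a median log2 ratio of −0.03 between GA and control members, with 7 of 19 genes above 0 and 0 past 2-fold. Erythroid markers summed to 783 CPM in GA and 537 CPM in control members, led by the globin gene Hbb-bs at 394 and 272 CPM. All 4 erythroid genes with enough UMIs were more than 2-fold higher in members than in low-Mrc1 macrophages in both libraries, although the tenth of members richest in erythroid transcripts held 98.8% and 97.2% of them, and only 112 of 347 GA and 173 of 405 control members held any. Osteoclast markers summed to 460 and 307 CPM, led by Tnfrsf11a, the receptor of the osteoclast factor RANKL, at 111 and 113 CPM, with Calcr at 0. The tenth of members richest in them held 57.8% in GA and 37.5% in control, and the median member held 214 and 219 CPM.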
